A study of Homo sapiens with 27 samples.

Results

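The BTG and TOB genes encode the antiproliferative proteins of the BTG/TOB family, and 5 of them were followed here among the 57905 genes of the expression table: BTG1, BTG2, BTG3, TOB1 and TOB2. They were chosen by name, as members of the family, and found in the table by their Ensembl identifiers, ENSG00000133639 (BTG1), ENSG00000159388 (BTG2), ENSG00000154640 (BTG3), ENSG00000141232 (TOB1) and ENSG00000183864 (TOB2). The cells were U937, a human myeloid leukaemia line of monocytic character grown in culture. RNA-seq was performed on 3 groups with 3 libraries each: control cells, and cells given matrine at 0.8 mg/ml for either 30 min or 24 h. Matrine is a quinolizidine alkaloid from Sophora plants, and no genetic change is named for any group. Both times were compared with the same 3 control libraries, whose time in culture is not named, so that time in culture and treatment cannot be told apart at either time. Nothing in the labels says that the libraries came from separate cultures, so the p-values measure only the spread between these samples, which may be technical.

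BTG and TOB proteins share a conserved amino-terminal domain that binds the deadenylases CNOT7 and CNOT8 of the CCR4-NOT complex, the main enzyme that shortens the poly(A) tails of mRNA. TOB1 and TOB2 have in addition a long carboxy-terminal region with PAM2 motifs that bind the poly(A) binding protein PABPC1, and so bring the deadenylase to an mRNA's tail. BTG1 and BTG2 also bind PRMT1, an arginine methyltransferase. As background, BTG2 is a classical early-response gene and target of p53, BTG1 is a known target of FOXO transcription factors, and members of the family slow entry into S phase when overexpressed.

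The promoters of the members that carry the results, BTG1 and TOB2, are shown with that of BTG2, the closest relative of BTG1. Each is the 250 bases before the RefSeq start (GRCh38.p14), read 5′ to 3′ on the gene's strand. BTG1 is at chr12:92145847-92146096 on the minus strand, BTG2 at chr1:203305269-203305518 on the plus strand, and TOB2 at chr22:41446802-41447051 on the minus strand. Capitals mark the forkhead site TGTTTAC, the CCAAT box (ATTGG where it lies on the other strand) and the TATA box TATAAA.
BTG1: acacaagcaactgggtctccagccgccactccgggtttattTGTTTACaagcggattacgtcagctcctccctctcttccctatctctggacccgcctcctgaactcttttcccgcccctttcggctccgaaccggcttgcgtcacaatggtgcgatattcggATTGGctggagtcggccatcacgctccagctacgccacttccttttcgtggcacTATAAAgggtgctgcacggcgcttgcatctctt
BTG2: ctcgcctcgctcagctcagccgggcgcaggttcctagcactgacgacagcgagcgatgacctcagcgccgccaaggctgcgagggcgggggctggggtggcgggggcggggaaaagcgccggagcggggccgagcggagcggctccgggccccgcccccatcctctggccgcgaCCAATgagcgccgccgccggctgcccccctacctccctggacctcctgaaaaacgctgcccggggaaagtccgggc
TOB2: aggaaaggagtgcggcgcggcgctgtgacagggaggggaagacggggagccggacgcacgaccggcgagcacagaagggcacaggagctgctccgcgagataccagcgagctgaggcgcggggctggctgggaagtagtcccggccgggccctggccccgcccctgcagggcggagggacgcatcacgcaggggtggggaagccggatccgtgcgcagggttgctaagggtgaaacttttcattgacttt
The BTG1 window was the least rich in G and C of the 3, at 56.4%, against a median of 58% among the 35114 promoters searched, and had 18 CG dinucleotides, against a median of 11. It held a forkhead site 209 bases upstream of the start, a match found in 2.98% of all promoters on either strand, a CCAAT box 87 bases upstream (32% of promoters) and a TATA box 33 bases upstream (10.7%). BTG2 had 74.8% G and C, 30 CG dinucleotides and a CCAAT box 76 bases upstream. TOB2 had 68.4% G and C and 24 CG dinucleotides, and none of the capitalised motifs was in its window. The GC box GGGCGG and the cAMP response element half-site TGACG were also searched, and are not capitalised. The GC box (42.6% of promoters) had 1 match in BTG1, 3 in BTG2 and 2 in TOB2. The half-site (21.2%) had 2 matches in BTG1, 1 in BTG2 and 0 in TOB2. The E-box CACGTG, found in 6.35% of promoters, was not in these windows. The motifs were chosen after the expression values were seen, and a match is only a run of letters.

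Library totals lay between 17314931 and 21930018 counts. Myelomonocytic markers were abundant, with a summed level of 2112.01 to 2579.83 FPKM per library and 11 of 14 genes above a mean of 1 FPKM, where FPKM, as deposited, is the fragment count per kilobase of gene scaled to the size of the library. Erythroid and megakaryocytic markers summed to between 5.06 and 8.1 FPKM, with 4 of 11 at 0 counts in every library, lymphoid markers to between 2.67 and 4.2 FPKM, with 4 of 8 at 0, and epithelial and stromal markers to between 0.03 and 0.16 FPKM, with 1 of 8 at 0. At 24 h the myelomonocytic sum was 2443.87 to 2579.83 FPKM, against 2112.01 to 2439.84 FPKM in control cells, and its part in the results was not tested. These are bulk samples, in which fewer cells of a type and less RNA per cell cannot be told apart.

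BTG1 was the most abundant member in every library, at 11.31 FPKM or more, and TOB2 came next, at 8.56 FPKM or less. TOB2 was in turn above TOB1 and BTG2 in every library. TOB1 and BTG2 did not separate in control cells, where TOB1 lay between 1.43 and 1.56 FPKM and BTG2 between 1.10 and 1.47 FPKM. They did separate in the treated groups, since the lowest TOB1 level was 1.52 FPKM after 30 min against a highest BTG2 level of 1.14 FPKM, and 2.00 against 1.55 FPKM after 24 h.

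BTG3, which has the same deadenylase-binding domain, was not detectable at this depth. It had 1 count, in control replicate 2, and 0 counts in each of the other libraries. A count of 0 allows up to 3 counts, which is 0.137 to 0.173 CPM (counts scaled to library size) across the libraries and covers counting error only. Whether reads of BTG3 were lost in mapping or counting was not tested. It was therefore not tested, and the tests below concern the other 4 members.

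**Figure D1:**
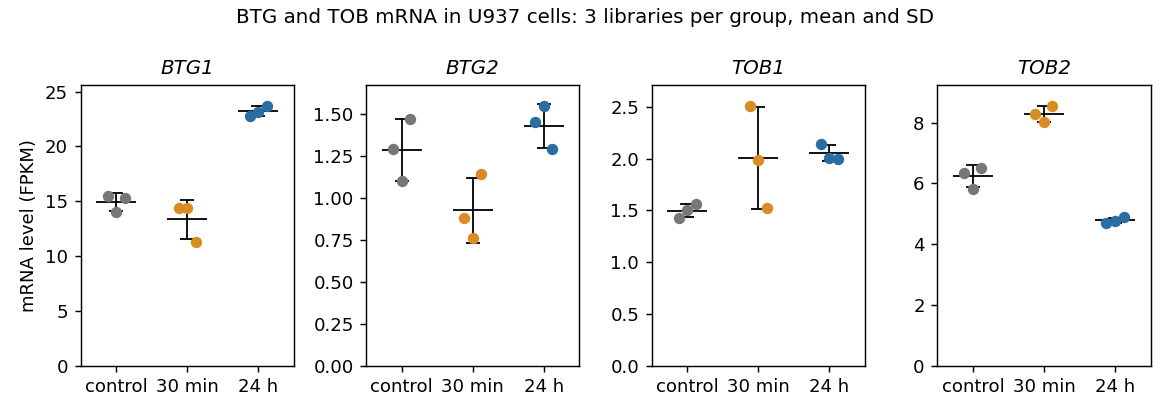
mRNA level in FPKM (vertical axis, from 0) of the 4 detected members in control, 30 min and 24 h libraries; points are single libraries, long bars the mean and whiskers the SD of 3. BTG1 stood at 22.81 to 23.72 FPKM after 24 h, above every other library, while TOB2 was highest after 30 min and lowest after 24 h.

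Whether matrine changed the family within 30 min was asked first. TOB2 was the member that rose. Its level was 6.35, 5.83 and 6.52 FPKM in control replicates 1, 2 and 3, and 8.30, 8.02 and 8.56 FPKM after 30 min of matrine. The groups did not overlap, with all 3 treated libraries above all controls, an arrangement that 5.64% of the 11587 genes tested shared. The mean was 6.23 ± 0.359 FPKM in control cells and 8.29 ± 0.270 FPKM after 30 min (SD, n = 3 each). In edgeR's quasi-likelihood test the log2 fold change of TOB2 was 0.43 ± 0.076 (SE; 95% interval 0.27 to 0.58; 1.34-fold), with an adjusted p of 0.00296 (Benjamini-Hochberg over all genes tested). Here and below a gene "rose" or "fell" when its adjusted p was below 0.05, and it is called up-regulated or down-regulated only when the change was also at least 1.5-fold. At 30 min 0.293% of all tested genes rose and 1.33% fell. TOB2 was below the fold threshold, so 0 of the 4 tested members were called up-regulated or down-regulated, against 0.639% of all genes. Its adjusted p stayed between 4.2e-05 and 0.0192 in 21 refits with other settings or with 1 library left out.

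TOB1, the other TOB protein, was not called at 30 min and was uneven between libraries. It was at 1.43, 1.5 and 1.56 FPKM in control cells and at 2.51, 1.99 and 1.52 FPKM after 30 min, so replicate 3 of the treated group lay within the control range and the groups overlapped. The coefficient of variation of its CPM was 25.7% after 30 min, while counting error alone gives 9.68% at its 78 to 139 counts. The log2 fold change was 0.44 ± 0.180 (SE; 95% interval 0.07 to 0.82), with an adjusted p of 0.314 in edgeR. The estimate was close to that of TOB2, with an SE of 0.180 in place of 0.076.

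BTG2 and BTG1 had negative estimates that did not pass the test at 30 min. BTG2 was at 1.29, 1.10 and 1.47 FPKM in control cells and at 0.88, 0.76 and 1.14 FPKM after 30 min, where replicate 3 again lay within the control range. Its log2 fold change was -0.46 ± 0.197 (SE; 95% interval -0.87 to -0.05), with an adjusted p of 0.347 in edgeR, and the count was only 43 to 74 per library in these groups. BTG1 was at 15.44, 14.04 and 15.33 FPKM in control cells and at 14.35, 14.37 and 11.31 FPKM after 30 min. The log2 fold change of BTG1 was -0.15 ± 0.087 (SE; 95% interval -0.33 to 0.03), with an adjusted p of 0.574 in edgeR. Replicate 3 of the 30 min group was the lowest of the 9 libraries for BTG1 and the highest of its group for BTG2 and TOB2.

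**Figure D2:**
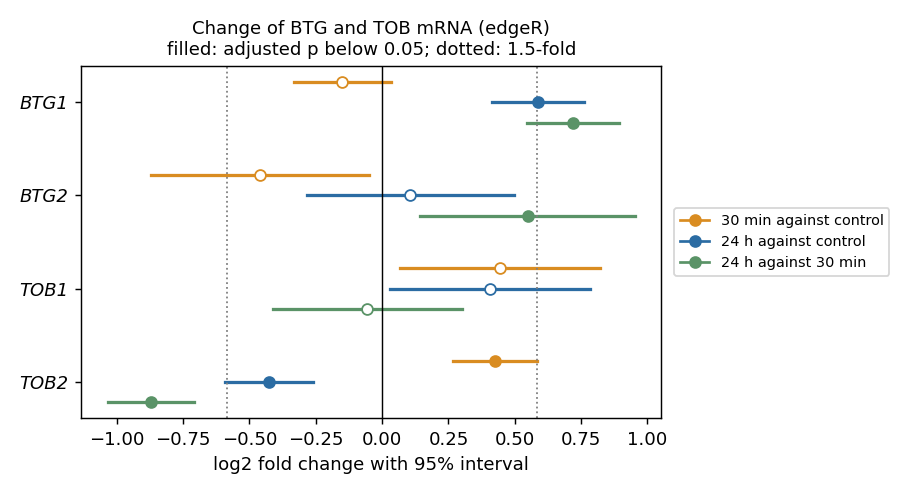
log2 fold change (horizontal axis) with its 95% interval for each tested member in the 3 comparisons; filled points have an adjusted p below 0.05, open points do not, and dotted lines mark 1.5-fold. TOB2 lies at 0.43 at 30 min and -0.43 at 24 h, while BTG1 lies at -0.15 and 0.59.

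After 24 h the pattern was different, and BTG1 was the member called up-regulated. Its levels were 22.81, 23.13 and 23.72 FPKM, all above the highest control of 15.44 FPKM, an arrangement shared by 34.5% of the genes tested. The mean went from 14.9 ± 0.778 to 23.2 ± 0.462 FPKM (SD, n = 3 each). The log2 fold change was 0.59 ± 0.083 (SE; 95% interval 0.42 to 0.76), just past 1.5-fold, with an adjusted p of 2.95e-06 in edgeR. At this time 15.1% of the 12035 genes tested were called up-regulated and 26.3% were called in either direction, so 1 called member of 4 is a share near the background. A larger absolute change than that of BTG1 was seen in 28.1% of the genes tested. The rise passed the test in 21 of 21 refits, with adjusted p-values up to 0.000163. The call did not, because the estimate lies at the 1.5-fold threshold: it held in 12 of the 21, and the estimate ranged from 0.52 to 0.64. It was lost without control replicate 2 (0.54), without 30 min replicate 1 (0.58) and without 24 h replicate 3 (0.56), and also with DESeq2 (0.58) and with other scalings and filters.

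TOB2 fell at 24 h. Its levels were 4.70, 4.78 and 4.88 FPKM, all below the lowest control of 5.83 FPKM, an arrangement found in 35.1% of the genes tested. The log2 fold change was -0.43 ± 0.079 (SE; 95% interval -0.59 to -0.26; 0.744-fold), with an adjusted p of 8.49e-05 in edgeR. It did not reach 1.5-fold and was not called, while 31.8% of all tested genes fell. The 3 libraries at 24 h had a coefficient of variation of 2.69%, against 4.68% from counting error alone.

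TOB1 stood just outside the threshold at 24 h, and BTG2 showed no change that could be detected. TOB1 was at 2.14, 2.01 and 2.00 FPKM, all above the highest control of 1.56 FPKM, an arrangement that 34.5% of the genes tested had. The log2 fold change was 0.41 ± 0.181 (SE; 95% interval 0.03 to 0.78), with an adjusted p of 0.0546 in edgeR, and 6 of 20 refits gave an adjusted p below 0.05. BTG2 was at 1.45, 1.55 and 1.29 FPKM, which overlapped the control range of 1.10 to 1.47 FPKM. Its log2 fold change was 0.11 ± 0.188 (SE; 95% interval -0.28 to 0.50), with an adjusted p of 0.637 in edgeR, and it changed sign without control replicate 2 (-0.0026).

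The later time was then set directly against the earlier one, a contrast between the treated groups, in which the control libraries entered only the scaling and the estimate of the spread. BTG1 was up-regulated from 30 min to 24 h, with a log2 fold change of 0.72 ± 0.084 (SE; 95% interval 0.54 to 0.89; 1.65-fold) and an adjusted p of 1.96e-07 in edgeR. TOB2 was down-regulated over the same interval by 1.83-fold, with a log2 fold change of -0.87 ± 0.078 (SE; 95% interval -1.03 to -0.71) and an adjusted p of 3.87e-09. In this comparison 26.9% of the 11981 genes tested were called, 15.4% up-regulated and 11.5% down-regulated, so 2 called members of 4 stand beside that background. All 24 h libraries were above all 30 min libraries for BTG1 and BTG2, as for 35.1% of the genes tested, and below them for TOB2, as for 33.3%. BTG2 rose by 0.55 ± 0.194 on the log2 scale (SE; 95% interval 0.14 to 0.95), with an adjusted p of 0.0179, and it was not called, while 32.5% of the genes tested rose. That rise was no longer below 0.05 without 30 min replicate 1 (0.0534), 30 min replicate 2 (0.0889) or 24 h replicate 2 (0.063). TOB1 was at -0.06 ± 0.171 (SE; 95% interval -0.41 to 0.30), with an adjusted p of 0.794, and this sign turned under other scalings.

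**Figure D3:**
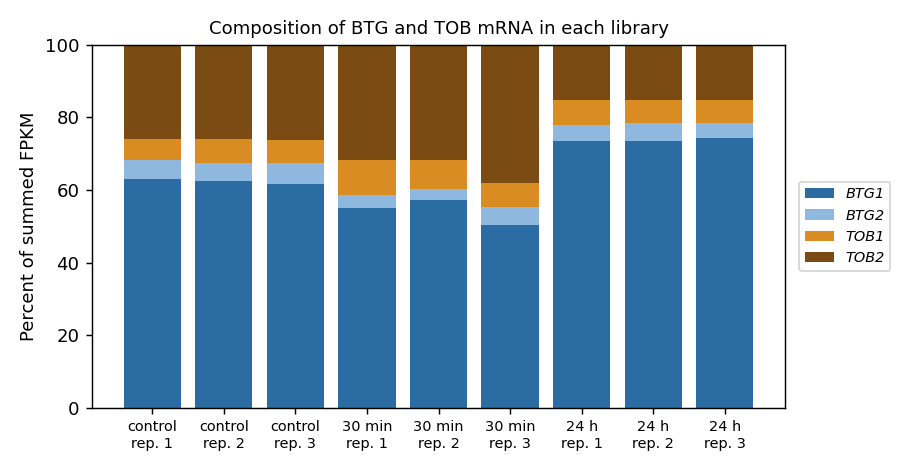
Share of the summed FPKM of the family (vertical axis, percent) taken by each detected member in each of the 9 libraries. BTG1 takes 73.3% to 74.4% in the 24 h libraries and 50.2% to 57.2% in the 30 min libraries.

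The summed level of the family was higher at 24 h, where BTG1 was higher and TOB2 lower, and its make-up differed between the times. The summed level of the members was 24.0 ± 1.29 FPKM in control cells, 24.6 ± 1.82 FPKM after 30 min and 31.5 ± 0.395 FPKM after 24 h (SD, n = 3 each). The lowest 24 h library, at 31.1 FPKM, was above the highest of the others, at 26.04 FPKM, and the sum was not tested. BTG1 made up 62.3 ± 0.693% of the sum in control cells, 54.2 ± 3.58% after 30 min and 73.7 ± 0.559% after 24 h. The share of TOB2 ran the other way, at 26.0 ± 0.168%, 33.9 ± 3.53% and 15.2 ± 0.0956%. Shares of 1 sum move together, so the pair is 1 measurement rather than 2.

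Ratios within a library are free of the scaling between libraries, and were taken for the 2 pairs of closest relatives. The log2 ratio of TOB1 to TOB2 was -2.15, -1.96 and -2.06 in control cells libraries, -1.73, -2.01 and -2.49 after 30 min and -1.14, -1.25 and -1.29 after 24 h. All 24 h libraries were above the others, and the means differed from the control by 0.83 on the log2 scale (two-sided exact permutation p = 0.1, the smallest that 3 against 3 allows). At 30 min the difference was -0.02 (exact permutation p = 0.9). The log2 ratio of BTG1 to BTG2 was 3.55 ± 0.149 in control cells, 3.86 ± 0.487 after 30 min and 4.03 ± 0.157 after 24 h (SD, n = 3 each). Its 24 h libraries were above the control libraries (difference 0.48, exact permutation p = 0.1), and its 30 min libraries overlapped both groups. How often the ratios of other gene pairs separate in this way was not computed. Among single genes tested at 24 h, 34.5% lay wholly above the control libraries and 35.1% wholly below.

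The ratio of TOB2 to BTG1 was added after the values were seen, so it only describes them. Its log2 value was -1.28, -1.27 and -1.23 in control cells, -0.79, -0.84 and -0.40 after 30 min, and -2.28, -2.27 and -2.28 after 24 h. The groups did not overlap at either time, and how many other gene pairs separate was not computed. Among single genes, 5.64% lay wholly above and 8.29% wholly below control at 30 min. At 24 h these shares were 34.5% and 35.1%. In linear terms TOB2 was at 0.411 to 0.425 of BTG1 in control cells, 0.558 to 0.757 after 30 min and 0.206 to 0.207 after 24 h.

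**Figure D4:**
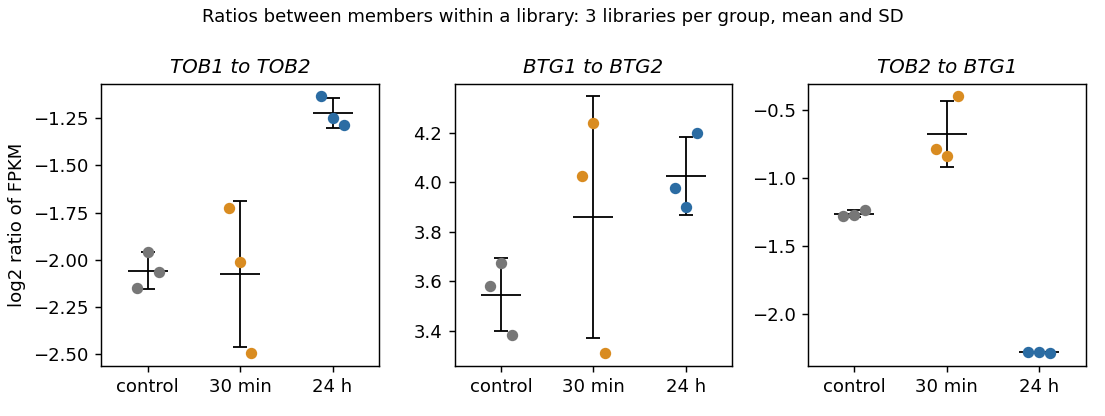
log2 ratio of FPKM between members within each library (vertical axis; scales differ between panels) for control, 30 min and 24 h; points are single libraries, long bars the mean and whiskers the SD of 3. The ratio of TOB2 to BTG1 is -0.84 to -0.40 after 30 min and about -2.28 in each 24 h library.

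Genes that overlap or copy a member took few counts. TOB2P1, a processed pseudogene of TOB2, had 3 to 5 counts per control library, 5 to 8 after 30 min and 10 to 15 after 24 h, against 441 to 831 counts for TOB2 itself. TOB1-AS1, on the strand opposite TOB1, had 1 to 17 counts per library, against 68 to 139 for TOB1. Whether the counting used strand is not given in the sources used here, so reads of TOB1 and its antisense partner cannot be told apart. BTG1P1 and BTG3P1, pseudogenes of BTG1 and BTG3, had 0 counts.

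The proteins through which the family acts were examined next. Of the 12 genes of the CCR4-NOT complex, all were tested and 0 were called at either time. At 24 h 2 rose (CNOT3 and CNOT8) and 6 fell, where 31.5% of all tested genes rose and 31.8% fell, with a median log2 fold change of -0.16 against 0.01 for all tested genes. The paralogous catalytic subunits that the BTG domain binds went opposite ways, and are named here after their values were seen. CNOT7 fell from 18.3 ± 0.744 to 15.9 ± 0.780 FPKM (log2 fold change -0.25 ± 0.064, SE; adjusted p = 0.00205 in edgeR), and CNOT8 rose from 19.2 ± 0.453 to 24.1 ± 0.151 FPKM (0.28 ± 0.067; adjusted p = 0.00125).

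Among poly(A) binding proteins and other deadenylases, 9 of 11 were tested at 24 h, and 1 was called up-regulated and 1 down-regulated, near the 15.1% and 11.2% of all tested genes, with a median of -0.08. PAN2, the catalytic subunit of the PAN2-PAN3 deadenylase, went from 3.15 ± 0.0854 to 7.05 ± 0.185 FPKM, a log2 fold change of 1.11 ± 0.077 (SE; adjusted p = 8.27e-11 in edgeR). TOE1, a deadenylase that trims small nuclear RNAs, went from 31.1 ± 1.43 to 16.2 ± 0.807 FPKM, a log2 fold change of -0.99 ± 0.068. PABPC1, the partner of the TOB proteins, is named after its values were seen and was at 335.9 ± 2.68 FPKM in control cells and 328.4 ± 4.71 FPKM at 24 h, with an adjusted p of 0.133. At 30 min 0 genes of this list were called.

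In the decapping and 5′ decay list 15 of 16 genes were matched and tested, since DCP1A was not matched to an identifier. At 24 h 7 fell and 3 rose (31.8% and 31.5% of all tested genes), with a median of -0.16. Those that rose, named after their values were seen, were DCP2, the decapping enzyme, at 0.39 ± 0.075 (SE), PATL1, a decapping activator, at 0.39 ± 0.062, and XRN1, the 5′ exonuclease, at 0.33 ± 0.101. Those that fell were EDC3, at -0.36 ± 0.058, and LSM2 to LSM7, at -0.62 to -0.29, all but LSM2 named after their values were seen. LSM1, also named after its value was seen, did not pass the test, at -0.16 ± 0.072 (adjusted p = 0.0551 in edgeR). LSM2 was the 1 gene called (log2 fold change -0.62 ± 0.072, SE; 62.0 to 41.8 FPKM). LSM2 belongs to the LSM ring that promotes decapping and also to the ring on U6 small nuclear RNA, and its call held in 15 of 21 refits.

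The list of named binding partners shares CNOT7, CNOT8 and the poly(A) binding proteins with those above, and also holds transcription factors and RNA binding proteins known to bind BTG or TOB proteins. Of its 17 genes, 12 were tested at 24 h, where 5 rose and 5 fell (31.5% and 31.8% of all tested genes), with a median of 0.01. Those that rose were CNOT8, CPEB4 and the signal transducers SMAD2, SMAD3 and SMAD4, and those that fell included PRMT1, CNOT7 and PABPC4, all but PRMT1 and CPEB4 being named after their values were seen. PRMT1, the partner of BTG1 and BTG2, was down-regulated at 24 h, from 91.4 ± 5.21 to 38.4 ± 1.74 FPKM (log2 fold change -1.30 ± 0.065, SE; adjusted p = 5.2e-13 in edgeR). At 30 min PRMT1 stood at 94.5 ± 6.07 FPKM. CPEB4, a CPEB family protein that binds cytoplasmic polyadenylation elements, was up-regulated at 24 h from 0.777 ± 0.210 to 1.36 ± 0.0896 FPKM (0.77 ± 0.157), and it passed the filter on low values only through its 24 h level.

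**Figure D5:**
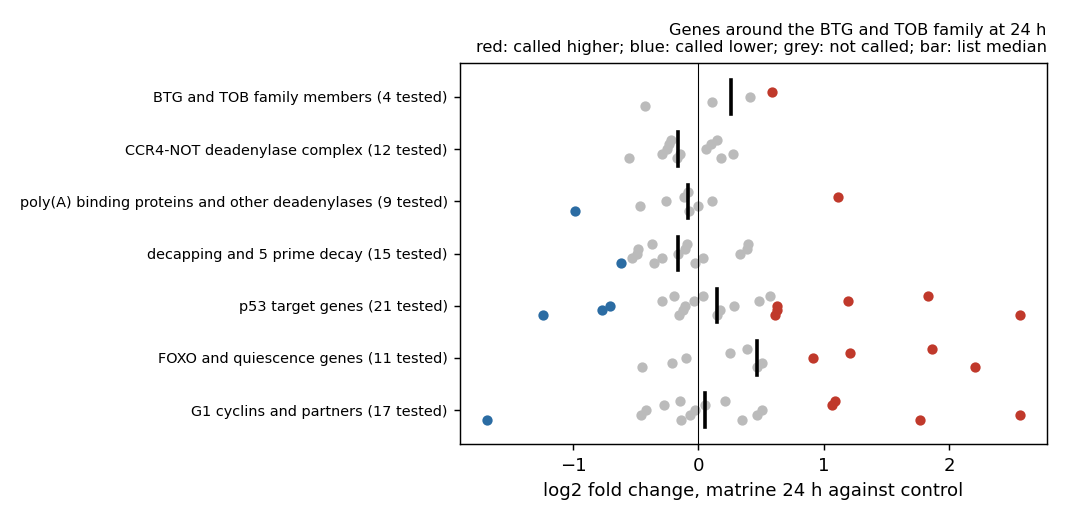
log2 fold change at 24 h against control (horizontal axis) of each tested gene of 7 lists (rows; vertical spread within a row has no meaning); red points are called up-regulated, blue down-regulated and grey neither, and black bars mark list medians. PAN2 and TOE1 stand apart in the deadenylase list, at 1.11 and -0.99, and no CCR4-NOT gene is coloured.

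Genes that share a regulator with the family, by textbook knowledge, were set beside it. In the p53 target list, without BTG2 itself, 21 of 24 genes were tested, and at 24 h 6 were called up-regulated and 3 down-regulated (15.1% and 11.2% of all tested genes), with a median of 0.15. Without the fold threshold 9 rose and 5 fell (31.5% and 31.8% of all tested genes). MDM2, at -0.29 ± 0.094 (SE), and BAX, at -0.20 ± 0.082, were among those that fell, and are named after their values were seen. Whether p53 was active in these cells was not tested. CDKN1A, the cyclin-dependent kinase inhibitor p21, was up-regulated from 1.18 ± 0.186 to 7.19 ± 0.648 FPKM, a log2 fold change of 2.56 ± 0.142 (SE; adjusted p = 2.65e-12 in edgeR). SESN2, a stress-induced inhibitor of mTORC1 signalling, had a log2 fold change of 1.84 ± 0.088, and BBC3, which encodes the BH3-only protein PUMA, one of 1.2 ± 0.163. AEN, a nuclease induced in apoptosis, was down-regulated, at -1.24 ± 0.071. GADD45A, a growth arrest and DNA damage gene, was the 1 gene of the list called at 30 min, at -0.69 ± 0.137 (adjusted p = 0.00732), and its FPKM at 24 h, 3.70 ± 0.601, was again below the control level of 6.07 ± 0.805. That call was lost without control replicate 2 (-0.56) and without 30 min replicate 3, where the adjusted p was 0.0502, and with limma on log2(FPKM + 1) (-0.57). GADD45A was also called down-regulated at 24 h, at -0.77 ± 0.137 (adjusted p = 5.3e-05 in edgeR). TRIAP1, an inhibitor of apoptosis named after its value was seen, was the remaining gene down-regulated at 24 h, at -0.71 ± 0.092.

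The FOXO and quiescence list, without BTG1 itself, had 15 of 16 genes matched, since TXNIP was not matched to an identifier. Of these 11 were tested at 24 h, where 8 rose and 2 fell (31.5% and 31.8% of all tested genes), with a median of 0.47 against 0.01 for all tested genes. The 4 called were all up-regulated: PIK3IP1, a negative regulator of PI3K, at 2.21 ± 0.144 (SE), CCNG2, an unconventional cyclin of arrested cells, at 1.86 ± 0.095, BCL6, a transcriptional repressor, at 1.21 ± 0.123, and KLF6, a zinc finger transcription factor, at 0.91 ± 0.085. The 2 that fell were FOXO1, at -0.45 ± 0.140, and CITED2, at -0.21 ± 0.055, and neither was called. FOXO3 and FOXO4 were among those that rose, at 0.25 ± 0.085 and 0.38 ± 0.099. These 24 h values are given after they were seen. PIK3IP1 and BCL6 were below 1 FPKM in control cells and passed the filter through their 24 h levels, so the count and the median of this list are a description only. At 30 min 9 genes were tested, 0 rose and 3 fell, where 0.293% and 1.33% of all tested genes did: CITED2 and, named after their values were seen, CDKN1B and IRS2, an insulin receptor substrate (36.4 ± 0.523 to 26.0 ± 2.14 FPKM). CITED2, a CBP/p300-binding cofactor, was the 1 gene called, at -0.72 ± 0.054 (adjusted p = 2.68e-08 in edgeR), and it went from 123.6 ± 5.71 to 74.5 ± 1.45 FPKM.

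CDKN1B, the cyclin-dependent kinase inhibitor p27 and a FOXO target, is named after its values were seen because it belongs to both the FOXO list and the G1 list. It was at 30.8 ± 1.03 FPKM in control cells, 21.5 ± 4.03 FPKM after 30 min and 45.2 ± 0.684 FPKM after 24 h. It fell at 30 min (log2 fold change -0.51 ± 0.092, SE; adjusted p = 0.00338 in edgeR) and rose at 24 h (0.50 ± 0.088; adjusted p = 3.93e-05), and neither change was called.

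The G1 list holds the cyclins, kinases and inhibitors that govern entry into S phase, the step the BTG and TOB proteins are known to slow. Of its 18 genes 17 were tested at 24 h, where 4 were called up-regulated and 1 down-regulated (15.1% and 11.2% of all tested genes), with a median of 0.05. Without the fold threshold 8 rose and 5 fell (31.5% and 31.8% of all tested genes). The 4 called up-regulated encode inhibitors, a grouping made after the values were seen: CDKN1A, CDKN2B at 1.77 ± 0.166 (SE), CDKN2C at 1.09 ± 0.069 and CDKN2D at 1.06 ± 0.097, the last named after its value was seen. CDKN2B likewise passed the filter through its 24 h level. The gene called down-regulated was CCND2, cyclin D2, at -1.68 ± 0.097. At 30 min 16 were tested and 0 were called.

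The genes whose pattern was most like that of BTG1 were sought among 11512 genes with a symbol, by the root mean square difference in log2 CPM, each centred on its own control mean, over the 9 libraries. They were TGFBR1, at 0.0712, CGGBP1, at 0.0766, and CENPI, at 0.0774, where the median gene was at 0.429. TGFBR1, a receptor kinase for TGF-beta, went from 45.3 FPKM in control cells to 42.1 FPKM after 30 min and 71.9 FPKM after 24 h (log2 fold changes of -0.09 and 0.62). CGGBP1, which binds CGG repeats, had log2 fold changes of -0.08 and 0.56, and CENPI, a centromere protein, -0.11 and 0.59. The likeness is across libraries that share their depth and scaling, and says nothing of function.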

How the data were processed

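RNA-seq of U937 cells was analysed in 9 libraries, 3 per group, grouped by their labels; HL-60 and K562 libraries were not analysed here. The submitters' processing notes name cutadapt 1.9.1, HISAT2 2.0.1, HTSeq 0.6.1 and GRCh37, while the paper names hg38, so no coordinates of the authors' table are given. The authors deposited the raw count of each gene and its FPKM in each library, and used DESeq2 for their own calls; annotation release, strand setting and treatment of multiply mapped reads are not given in the sources used here. GENCODE release 44 gave a symbol for 51996 of 57905 identifiers. Promoters were matched by symbol for all 5 members in RefSeq tables (GRCh38.p14).

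Genes averaging more than 1 FPKM across a comparison's 6 libraries were tested with edgeR 4.0.16 (R 4.3.3; TMM, quasi-likelihood, Benjamini-Hochberg), in a fit of all 9 libraries made for each comparison with its own tested genes and scaling factors, so the 3 log2 fold changes of a gene need not add up exactly. A call required 1.5-fold and an adjusted p under 0.05. SE was |log2 fold change| divided by the square root of F. Counts were simulated from the fitted model, with few genes changed, equally up and down, and each beyond 1.5-fold. Of 195 changed genes 177 were recovered for 24 h against control, with 0 false calls. The simulation checks the procedure only, and not changes near the threshold or the scaling of the real libraries. limma 3.58.1 and DESeq2 1.42.0, other scalings, filters, pseudocounts and fold changes, a replicate block and each library left out were alternatives. Replicate libraries differed beyond sampling noise (chi-square per gene 2.21 to 13.9). At totals of 17314931 to 21930018 counts, BTG2 and TOB1 had 43 to 139 counts per library and BTG3 at most 1.

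Named genes were the members, in each list up to 4 called genes per time with the largest change, the 3 genes nearest in pattern to a called member, and overlapping or copied genes; others are marked, and 1 gene of a list is not reported here. The members and lists were chosen with earlier results of these data known.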

Additional observations from a re-analysis of the deposited data

Results flagged for a closer look

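BTG1 and TOB2 responded differently at the 2 times. The log2 fold change of BTG1 for 24 h against 30 min was 0.72, and that of TOB2 was -0.87, each tested directly between these groups in edgeR (adjusted p = 1.96e-07 and 3.87e-09). BTG1 was higher in 3 of 3 libraries at 24 h than in any at 30 min, as were 35.1% of the genes tested. TOB2 was lower in 3 of 3, as were 33.3%. Of all genes tested in this comparison, 26.9% were called. The 30 min and 24 h groups differ in duration of exposure and possibly in time in culture, which cannot be told apart here.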

How the results depend on the processing

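The call of BTG1 at 24 h against control depended on the scaling and the filter, since its log2 fold change lies at the 1.5-fold threshold. It was 0.58 with DESeq2, with DESeq2's size factors and with scaling factors from genes tested in any comparison, 0.52 with no filter on low values, 0.53 with edgeR's own filter, 0.52 with scaling factors from all genes, and 0.54 to 0.61 with 1 library left out; at a fold change of at least 2 it stayed 0.59 and was not called. The 2 alternatives on the genes behind the scaling factors were chosen after seeing the data. The number of members called at 24 h was then 0 in place of 1 (0 to 1 with a library left out), and 2 with no fold threshold or with 1.2-fold, where TOB2 (-0.43) joined it. At 30 min those thresholds gave 1 call in place of 0, TOB2 at 0.43. From 30 min to 24 h a fold of at least 2 left 0 calls in place of 2, with BTG1 at 0.72 and TOB2 at -0.87, and BTG2 was called at 0.63 with library totals alone, at 0.59 with limma on log2(FPKM + 0.1) and at 0.55 with no threshold or 1.2-fold (0.42 to 0.72 with a library left out). TOB1 turned positive from 30 min to 24 h, at 0.026 with library totals, 0.056 and 0.033 with limma at pseudocounts of 0.1 and 1, and 0.15 without 30 min replicate 1 (-0.23 to 0.15 with a library left out). BTG2 at 24 h turned to -0.0026 without control replicate 2 (up to 0.19), and CGGBP1 at 30 min to 0.0049 without 30 min replicate 3 (down to -0.15). The causes were not tested. The down-regulated share of all calls at 24 h was 42.5%, against 37.0% with library totals and 51.3% with scaling factors from all genes. From 30 min to 24 h it was 42.8%, against 32.6% and 49.9%. Same-numbered libraries showed no shared deviation (correlations across genes of -0.133 to 0.0901, against -0.137 to 0.189 for differently numbered ones). With 3 libraries per group this cannot exclude that the numbers pair samples. With the number as a replicate block BTG1 at 24 h was at 0.59 and no member's call changed. Of the recomputed log2 fold changes, 255 for the members and 722 for other named genes kept their direction and side of the threshold, while 37 for named genes lost and 15 gained a call. A filter at a mean FPKM of 5 gives no value for BTG2 and TOB1. Low counts limit the precision of BTG2 and TOB1.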

Other observations

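Markers used to check the line were also read at 24 h. Of 14 myelomonocytic markers 12 were tested, and 4 were called up-regulated and 1 down-regulated (15.1% and 11.2% of all tested genes), with a median log2 fold change of 0.51. Without the fold threshold 7 rose and 4 fell. MPO, the myeloperoxidase of azurophil granules, went from 0.313 ± 0.117 to 1.84 ± 0.154 FPKM (log2 fold change 2.5 ± 0.239, SE), having passed the filter through its 24 h level, and ITGAM, the CD11b integrin chain, from 1.28 ± 0.127 to 3.15 ± 0.113 FPKM (1.25 ± 0.111). The granule proteins AZU1 and PRTN3 went opposite ways, at 0.75 ± 0.067 and -1.15 ± 0.075, and ELANE, neutrophil elastase, named after its value was seen, was at 0.59 ± 0.064. Of the 2 lymphoid markers tested, CD79A was called up-regulated, at 0.74 ± 0.214, from 1.49 ± 0.404 to 2.58 ± 0.229 FPKM. Of the 2 erythroid markers tested, 0 were called.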
